A study of Mus musculus musculus x Mus musculus castaneus with 12 samples.

Results

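The 2 parental alleles of each gene were compared inside single cell lines derived from F1 hybrids of the laboratory strain C57BL/6J (BL6) and Mus musculus castaneus (cast). The comparison used the 4 control libraries of male hybrid mouse embryonic stem (ES) cells among the 12 libraries of the series. It covered autosomal genes off chromosomes 1 and 8 with at least 20 reads over BL6/cast SNPs (SNP reads, called SNP fragments in the plots) in every control, which left 9257 of the 24346 genes in the files. A strain effect here is a gene with the same strain higher in both reciprocal crosses.

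The control groups were male BC wt (BL6 mother, cast father) and male CB wt (cast mother, BL6 father; a line that carries an actin-GFP transgene), with 2 replicates each, all wild type for Kdm6a. Each cross is represented by 1 line, so p-values speak for replicates of that line only. Parent of origin, line and transgene cannot be told apart from each other. The cells were grown with serum and LIF on inactivated mouse embryonic fibroblasts, which were depleted on gelatin before RNA was collected. Female BC wt cells (2 replicates, BL6 mother) and 6 Kdm6a knockout (KO) clones of the male lines are used below for comparison only.

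In an F1 hybrid both alleles of a gene share one nucleus and the same transcription factors. A difference between them that follows the strain in both directions of the cross is called a cis effect, since it travels with the DNA of the allele, whereas a difference that follows the mother or the father marks genomic imprinting. Many mammalian genes differ in this way between mouse subspecies, usually by small amounts.

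The controls held 80880720 and 83497935 assigned reads in BC wt and 51457763 and 51384489 in CB wt. BL6 SNP reads made up 9.54% to 10.1% of these, and cast SNP reads 7.84% to 8.48%, so each allele ratio rests on a small part of a gene's reads. The median BL6 share of genes on chromosome 1 (67.9% to 68.3%) and chromosome 8 (66.8% to 67.1%) stood apart in BC wt, whereas the other autosomes lay between 50.6% and 52.5% in BC wt and between 47.1% and 52.7% in CB wt. The ES cell genes Pou5f1, Nanog, Sox2 and Zfp42 were abundant in all 4 controls, with Pou5f1 at 2072 to 2824 TPM, which scales reads by transcript length and library size. The summed level of the 20 feeder fibroblast markers was 909 and 754 TPM in BC wt and 1347 and 1300 TPM in CB wt. Much of it was Fn1 and Sparc. Most of the markers were higher in CB wt, with Sparc at a mean of 202 TPM in BC wt and 591 in CB wt. Col1a1 averaged 8.34 and 54.25 TPM, Col5a1 5.70 and 29.97, and Lox 2.24 and 10.3. Fn1, Thy1, S100a4, Lum and Prrx1 were not higher in CB wt, with Fn1 at 543 and 542 TPM. Lum and Prrx1 were below 0.3 TPM. The part of residual feeder RNA in the allele ratios was not tested.

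Strain effects were common and mostly small. The same strain was higher in both crosses for 7197 of 9257 genes (77.7%), and 2060 genes pointed to opposite strains. By edgeR's quasi-likelihood test with Benjamini-Hochberg adjustment over all 9257 genes, 5904 genes were called (63.8% of genes tested), of which 1945 had BL6 higher (21%) and 3959 had cast higher (42.8%). The fitted errors can be smaller than the spread between replicates, so the number of called genes may be too high. The median called effect was 0.49 on the log2 scale, or 1.40-fold. The quartiles were 0.33 and 1.26 for BL6-higher genes and 0.27 and 0.79 for cast-higher genes.

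Effects of at least 2-fold in both crosses were found in 714 genes (7.71% of genes tested), 449 with BL6 higher (4.85%) and 265 with cast higher (2.86%). At 4-fold (log2 of 2) in both crosses, 207 genes had BL6 higher and 70 had cast higher, and at 8-fold (log2 of 3) 129 and 26 remained. The larger the difference, the more the list leaned to BL6. Only 40 genes were at least 2-fold apart in opposite strain directions in the 2 crosses, 25 of them BL6-higher in BC and 15 BL6-higher in CB. In the plot of the reciprocal crosses the strain effects lie along the rising diagonal. The log2 ratios of the 2 crosses correlated across genes with Pearson r = 0.61 (Spearman rho = 0.61). Replicates of one line correlated with r = 0.95 in BC and 0.97 in CB. These are descriptions over 9257 genes that share libraries, and genes are not independent replicates.

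**Figure D1:**
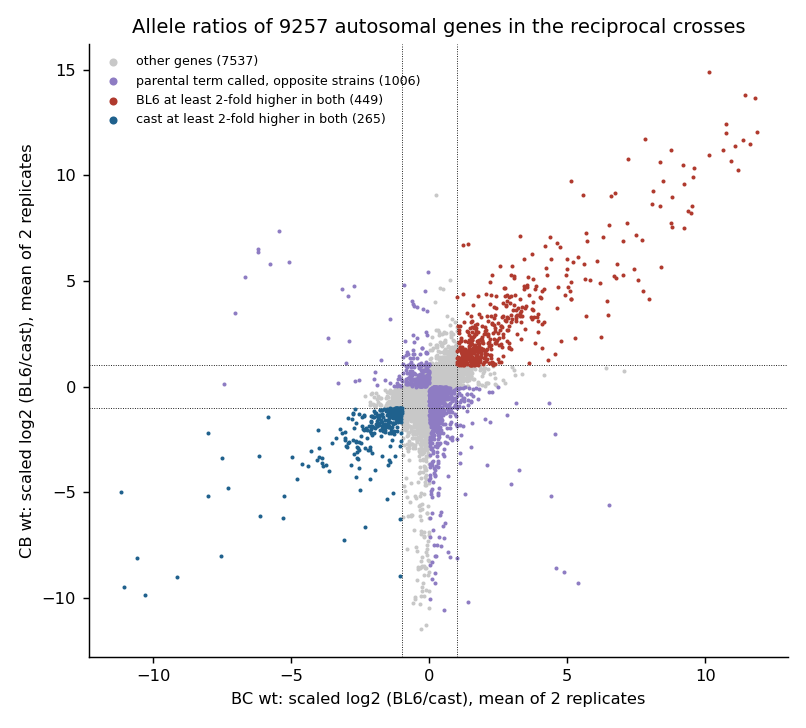
Scaled log2 ratio of BL6 to cast SNP reads in male BC wt (x axis) and male CB wt (y axis), each the mean of 2 replicates, with 1 point a gene and dotted lines at 2-fold. The 449 BL6-higher and 265 cast-higher genes lie at the upper right and lower left, and a column of genes near 0 in BC reaches far below 0 in CB.

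How many genes favour each strain depends on how the 2 alleles are set against each other. Here each allele was divided by its own total over the 9257 genes, since BL6 totals exceeded cast totals 1.12- and 1.13-fold in BC and 1.17-fold in both CB replicates. The median strain term over all genes was then -0.15 (log2). When the median log2 ratio of each library was set to 0 instead, 2755 genes were called with BL6 higher and 2680 with cast higher, so the BL6 share of the called genes rose from 32.9% to 50.7%. Of the called genes, 4625 had the same strain higher under both scalings and 5 had the other strain higher. In the 2-fold list there were 527 BL6-higher and 196 cast-higher genes after median centring, 645 of them shared with the first scaling, and the BL6 share also moved, from 62.9% to 72.9%. The 5 scalings are set side by side in the bar chart of called genes.

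**Figure D2:**
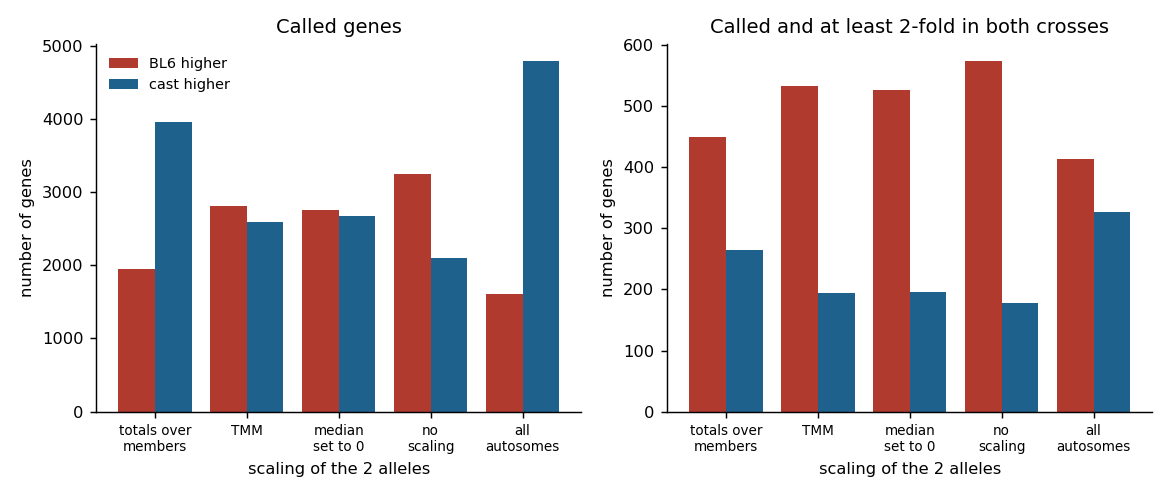
Number of genes called with BL6 higher (red) or cast higher (blue) under 5 ways of scaling the 2 alleles, for all called genes (left) and for those at least 2-fold apart in both crosses (right). The side with more called genes changes with the scaling, whereas BL6-higher genes outnumber cast-higher genes in the 2-fold list under each of the 5.

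Genes read almost only from 1 strain form the extreme of the list, and whether the other allele was silent was not tested. In 84 genes one strain gave under 5% of the SNP reads in every control, 74 with BL6 present and 10 with cast present. In 15 genes one allele had no read at all in the 4 controls, 14 of them without a cast read and 1, the pseudogene Tyms-ps, without a BL6 read. Mir686 and Mir8094 are among the 14, with SNP reads at 505.1% and 485.6% of their assigned reads, so their ratios are uncertain. Setd1a, a histone H3 lysine 4 methyltransferase (chromosome 7, 127776670 to 127800122, mm10), had 278, 225, 114 and 108 BL6 reads in BC wt 1, BC wt 2, CB wt 1 and CB wt 2, and no cast read in any. With a floor of 3 reads over the 4 controls, BL6 was at least 211.5-fold higher. Hif1a, the oxygen-regulated transcription factor, had 795 BL6 reads in all and no cast read, or at least 232-fold. Psmd6, a subunit of the proteasome lid, had 717, 757, 561 and 562 BL6 reads and 1, 0, 0 and 0 cast reads, a cast share of 0.0385% (exact 95% binomial interval 0.000975% to 0.214%, counting error only). Setd1a, Hif1a and Psmd6 share 0.28%, 0% and 0% of their transcript 31-mers with another gene, but only 1.09%, 1.49% and 5.44% of their reads lay over a SNP, so few sites decide these ratios.

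Symbols of predicted genes or clones and symbols ending in -ps were left out, which does not remove every pseudogene. The genes with the largest BL6 excess in their less biased cross, among those with at least 100 SNP reads in every control, were Mir703, Ubb, Rps4l, Ywhah, Crip2, Ranbp1, Tuba1b, Ptbp1, Mrpl36, Phf5a, Nap1l1 and Tuba1a. Rps4l is annotated as a transcribed processed pseudogene. Ptbp1, a splicing repressor of neural exons, had 11835, 11806, 30846 and 29832 BL6 reads against 4, 6, 19 and 12 cast reads. Crip2, a LIM-domain protein, had 1120, 1277, 4684 and 4755 BL6 reads against 0, 0, 1 and 1 from cast. Ubb, which encodes polyubiquitin, had 24346 SNP reads in all, of which 2 were from cast. Several of the 12 have near-identical copies elsewhere: 68.9% of the 31-mers of Tuba1b, 68.0% of Tuba1a and 50.3% of Ubb occur in the transcripts of another gene, against 0.19% for Crip2. Genes with such copies are uncertain, because reads of a copy can be counted for either gene. The counts on the 2 genomes also differed by over 10% in a control for each of the 12 except Ywhah. This count difference is not independent of the allele ratio, since a gene read from 1 strain can lose reads on the other genome. It cannot show whether the ratios of Ptbp1 and Crip2 are wrong, and they are uncertain as well.

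Under the same limits the cast-higher genes were Hspa8, AY358078, Ccl9, Ube2s, H2afy3, Morf4l1, Tomm22, Tbc1d4, Rpl19, Mmrn2, Nsfl1c and Ulk4. H2afy3, which counts among the histones below, is annotated as a processed pseudogene. The counts on the 2 genomes differed by over 10% in a control for each except Tomm22, Tbc1d4, Nsfl1c and Ulk4. Hspa8, the constitutive HSC70 chaperone (chromosome 9, 40800984 to 40810087), had 6, 27, 7 and 13 BL6 reads against 7046, 6385, 4538 and 4357 cast reads. It shares 40.3% of its 31-mers and lies in a stretch shifted to cast in CB, although its ratio was alike in BC. Tbc1d4, a Rab GTPase-activating protein of insulin-stimulated glucose transport, shares none, and its BL6 share was 8.50%, 8.04%, 7.52% and 6.18%. Its strain term was -3.81 ± 0.071 (log2 ± SE). Ulk4, a member of the unc-51-like kinases, had BL6 shares of 12.8%, 11.7%, 12.5% and 14.7% and a strain term of -2.95 ± 0.16. In both genes the 4 libraries lay within a few percentage points of each other, whichever parent gave the BL6 allele.

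Shared sequence and unequal mapping moved with these effects, and with the BL6 side more than with the cast side. Of the 449 BL6-higher 2-fold genes, 146 (32.5%) shared over 10% of their 31-mers with another gene, against 42 of 265 cast-higher genes (15.8%) and 7.20% of all members. In 217 of the 449 (48.3%) the reads counted on the BL6 genome and on the cast genome differed by over 10% in a control, against 54 of 265 (20.4%) and 7.04% of all members. Of the 84 genes read almost only from 1 strain, 67 had at least 1 of these features, as did 309 of 714 2-fold genes. Of all 9257 members, 8307 had neither. Among the 8307 members with neither, 205 were at least 2-fold BL6-higher and 200 cast-higher, which is 2.47% and 2.41% of them, but which strain led depended on the scaling. With the median centred these counts became 261 and 141, and with the ratio over all autosomes 186 and 253. The part of the 2 features in the result was not tested. The count difference is not independent of the allele ratio, so leaving such genes out can also remove strong strain effects. The 31-mer comparison was chosen after seeing the data.

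**Figure D3:**
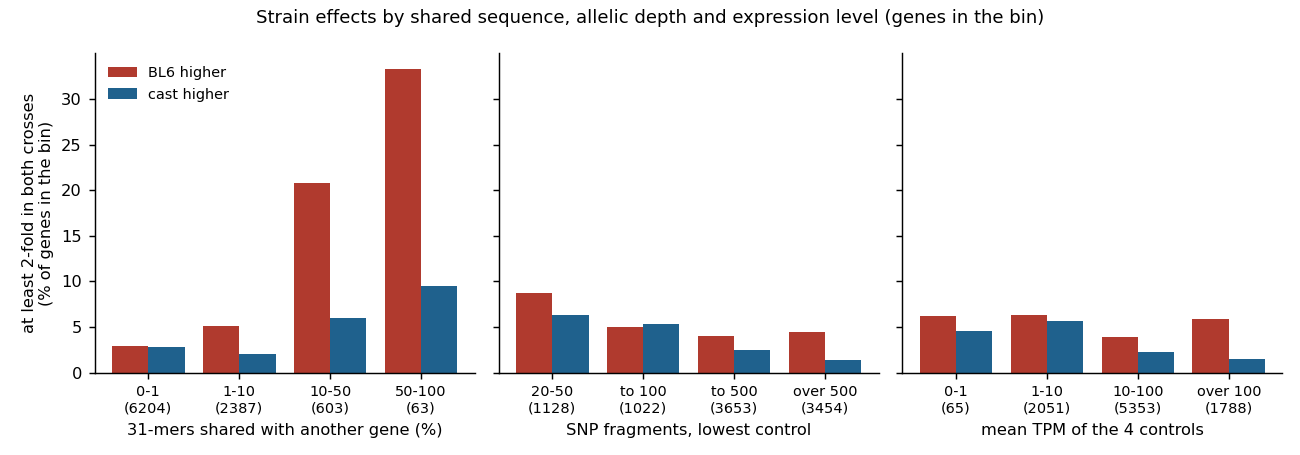
Share of genes at least 2-fold apart in both crosses with BL6 (red) or cast (blue) higher, in bins of the share of 31-mers found in another gene, of the SNP reads in the lowest control and of the mean TPM, with the number of genes in each bin in parentheses. The BL6 share rises from 2.93% to 33.3% across the 31-mer bins, while the cast share goes from 2.81% to 9.52%.

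Calls were also more frequent in abundant genes. Genes with over 100 TPM were called more often (74.7%) than genes at 1 to 10 TPM (54.2%), and so were genes with over 500 SNP reads in each control (74.6%) against those with 20 to 50 (47.1%). Cast-higher 2-fold effects went the other way, from 5.66% of genes at 1 to 10 TPM to 1.51% above 100 TPM. At the threshold of the rule, 160 of 253 genes with 20 to 24 SNP reads in their lowest control pointed to the same strain in both crosses (63.2%, median absolute log2 ratio 0.45), against 202 of 285 genes just outside, with 15 to 19 reads (70.9%, 0.59).

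To describe genes in which both strains were read well, 56 protein-coding genes were taken that were 2-fold apart under both scalings, kept at least 5% of reads from each strain, shared at most 1% of their 31-mers, had like counts on both genomes, had at least 100 SNP reads in every control, overlapped no other annotated gene and lay outside the shifted stretches described below. In 37 BL6 was higher and in 19 cast was higher. This list was chosen after its values were seen and is a description.

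Rxrb, a retinoid X receptor (chromosome 17, 34031812 to 34038399), led the BL6-higher genes of this list. Its BL6 reads were 1740, 1916, 1247 and 1143 against 181, 226, 114 and 107 cast reads, and its strain term was 3.10 ± 0.052. Cnbp, a nucleic acid binding zinc finger protein, was expressed at 1151 ± 75.6 TPM (SD, n = 4) and gave 88.3% to 91.1% BL6 reads in the 4 controls. Eef1e1, a component of the multi-tRNA synthetase complex, gave 85.5%, 85.3%, 83.5% and 82.9%. Bach1, a heme-responsive transcriptional repressor, gave 78.0%, 77.0%, 77.6% and 77.8%, the narrowest range of these 4 genes. Tcl1, an AKT coactivator of ES cells, gave 76.8% to 79.8% and had a strain term of 1.65 ± 0.084. Pmvk, an enzyme of the mevalonate pathway, gave 78.3% to 80.3%.

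On the cast side, Ssh1, a cofilin phosphatase, had BL6 shares of 15.5% and 15.9% in BC and 10.4% and 9.13% in CB, with a strain term of -3.01 ± 0.066. Igfbp3, a secreted carrier of insulin-like growth factors (chromosome 11, 7206086 to 7213923), had 145, 165, 316 and 306 BL6 reads against 804, 960, 1609 and 1579 cast reads, or 14.7% to 16.4% BL6. Nr3c1, the glucocorticoid receptor, had BL6 shares of 25.5%, 23.0%, 28.4% and 23.8% and a strain term of -1.78 ± 0.086. Lrrk2, a kinase linked to Parkinson disease, had 25.5% to 29.6%. B3glct, a glucosyltransferase of the endoplasmic reticulum, had 28.7%, 28.2%, 25.4% and 29.3%. In Nr3c1, Lrrk2 and B3glct the BC and CB libraries overlapped.

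**Figure D4:**
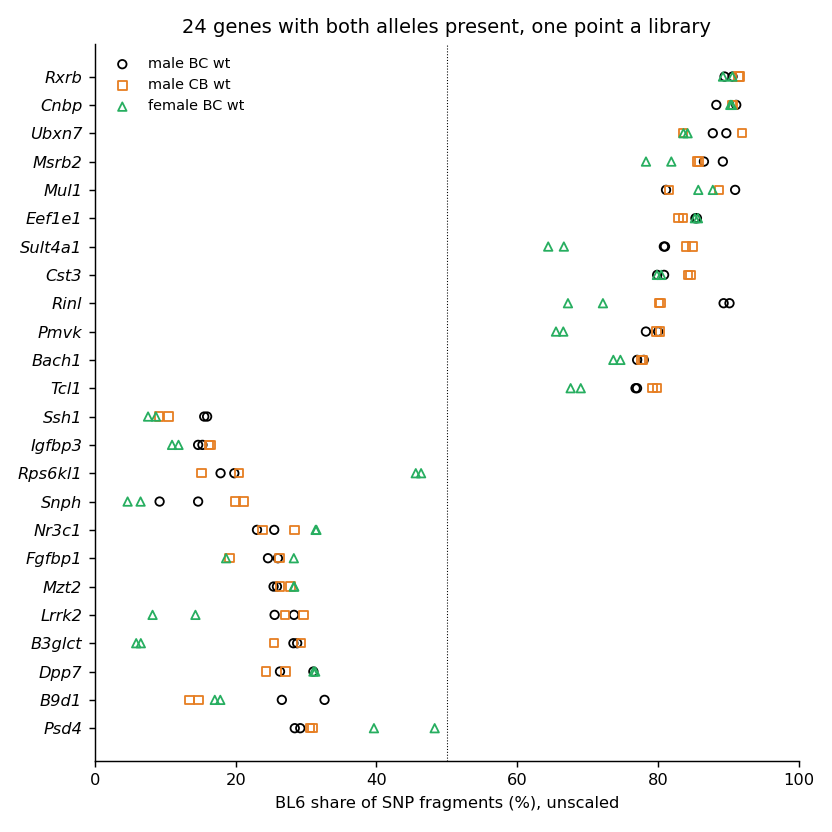
BL6 share of SNP reads, unscaled, in each library for the 12 BL6-higher and 12 cast-higher genes whose smaller cross ratio was largest among the 56 genes described above, with circles for male BC wt, squares for male CB wt and triangles for female BC wt. The male libraries of a gene lie close together on one side of 50%, and for Rps6kl1 and Psd4 the female libraries lie nearer to 50%.

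Gene families differed widely in how many members had a 2-fold effect, read against the 7.71% of all genes tested. The leading families were glutathione S-transferases (8 of 13 tested, 61.5%), major histocompatibility complex (MHC) genes (7 of 15, 46.7%), histones (6 of 14, 42.9%), interferon-inducible genes (8 of 22, 36.4%), cytosolic ribosomal proteins (14 of 42, 33.3%) and cytochrome P450 enzymes (3 of 11, 27.3%). Pseudogenes (18 of 38, 47.4%) and long noncoding RNAs (33 of 126, 26.2%) were also above that share. At the other end lay zinc finger proteins (13 of 297, 4.38%), kinesins (0 of 26), protocadherins (0 of 12), and aldehyde dehydrogenases and aldo-keto reductases (0 of 17). No family was tested as a set, and members of a family often share sequence.

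**Figure D5:**
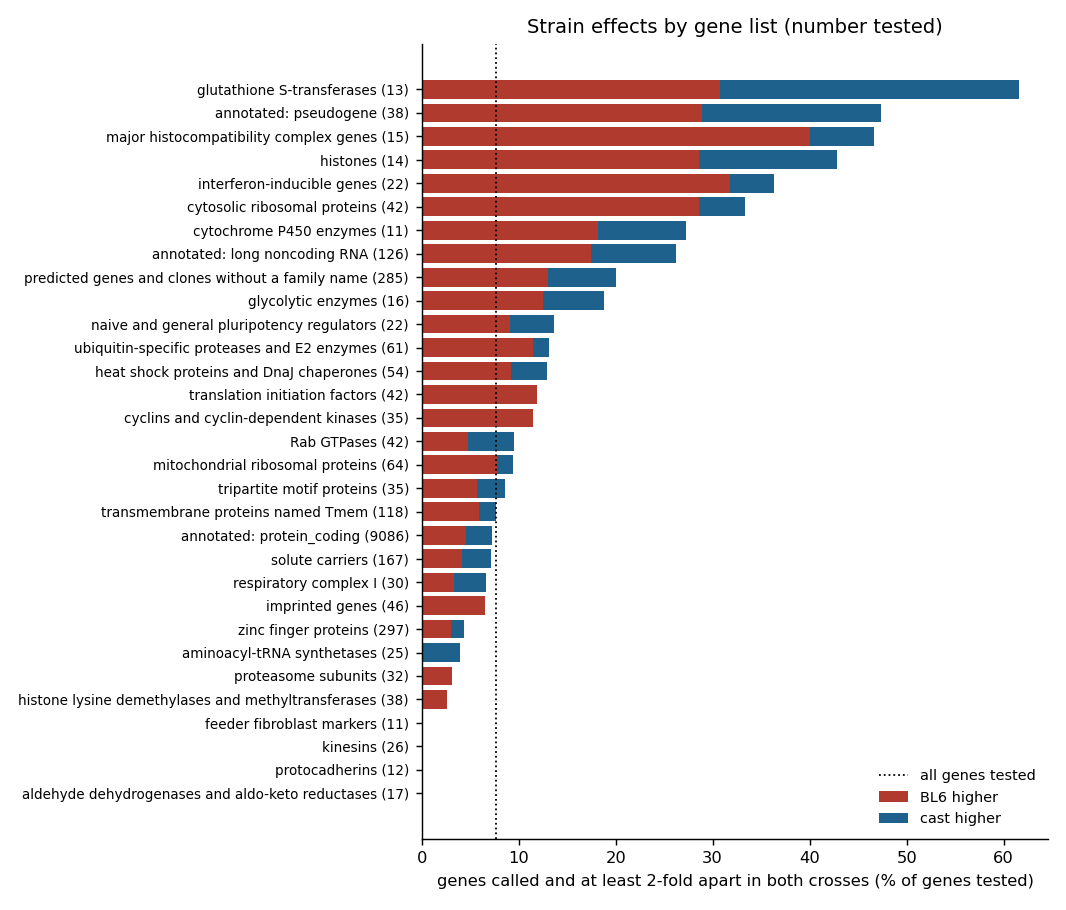
Percentage of tested genes in each list of at least 10 that were called and at least 2-fold apart in both crosses, split by the higher strain (red BL6, blue cast), with the number tested in parentheses and a dotted line at the share of all genes tested, 7.71%. Glutathione S-transferases, pseudogenes and MHC genes stand highest, and 4 lists have no such gene.

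MHC genes, which present peptides to T cells, leaned to BL6: 9 of 15 were called with BL6 higher and 3 with cast higher, where all genes gave 21% and 42.8%. With the median centred, with TMM normalization or without scaling, 1 was cast-higher. Their median strain term was 0.82, against -0.15 for all genes. It lay between 0.74 and 1.01 under the other scalings. H2-K1, a classical class I gene (chromosome 17, 33996017 to 34000347), had 175, 272, 3535 and 3325 BL6 reads against 1, 0, 0 and 1 cast reads. Its level also differed between the lines. H2-Q4 had 223, 249, 875 and 920 BL6 reads against 0, 2, 25 and 21 cast reads. H2-DMa, which edits peptides on class II molecules, went the other way with 34.3%, 37.3%, 38.0% and 30.9% BL6, and its 2-fold difference was lost when the median was centred. H2-Q4, H2-Q7 and H2-Q10 form, with Ddx39b and Mir8094, the longest run of neighbouring tested genes 2-fold higher from 1 strain. It holds 5 genes (chromosome 17, 35241746 to 35474563), all BL6-higher. The SNP reads of Mir8094 came to 485.6% of its assigned reads, so its ratio is uncertain. B2m, the light chain of class I molecules, and Tap1, which carries peptides to them, had strain terms of 0.03 and 0.01 and were not called. H2-K1 shares 22.8% and H2-Q4 38.4% of 31-mers with other genes. More reads were counted on the BL6 genome than on the cast genome in the called MHC genes with the largest strain terms. The log2 ratio of these counts was 0.53 in H2-K1, 0.20 in H2-Q7, 0.28 in H2-Q4 and 0.68 in H2-T3. The part of this in the lean to BL6 was not tested.

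Interferon-inducible genes also leaned to BL6, with 15 of 22 called BL6-higher and 2 cast-higher, against 21% and 42.8% of all genes, and a median strain term of 0.80 (0.72 to 0.99 under the other scalings). Ifitm3, a membrane protein that restricts virus entry, had BL6 shares of 75.8%, 72.2%, 71.4% and 71.6%. Ifitm2, its neighbour, had 81.4%, 87.9%, 94.4% and 93.6%, and BC and CB did not overlap. Isg15, a ubiquitin-like modifier, was the 2-fold exception on the cast side, with 20.6%, 18.6%, 18.3% and 24.1% BL6. The interferon regulatory factors Irf1, Irf3, Irf5 and Irf9 were not called. In 9 of the 22 genes over 10% of the 31-mers are shared. The log2 ratio of reads counted on the BL6 genome to those on the cast genome was 0.70 in Ifitm2 and -0.19 in Isg15.

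Glutathione S-transferases, which detoxify electrophiles, split evenly, with 4 at least 2-fold BL6-higher and 4 cast-higher. Gstz1, which also acts in tyrosine breakdown, had BL6 shares of 16.8%, 16.6%, 20.3% and 17.2% and a strain term of -2.42 ± 0.063. Gstp1 had 21.8% to 27.3%. Gstm5 had 81.4%, 86.0%, 84.0% and 80.4%, with a strain term of 2.09 ± 0.20, while Gstm2, a member of the same cluster on chromosome 3, was cast-higher at -2.12 ± 0.20. Gstz1 shares 0.59% and Gstm5 0% of 31-mers, against 38.5% for Gstp1 and 12.2% for Gstm2.

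Among histones and their modifiers, H2afy, which encodes the variant macroH2A1, had BL6 shares of 77.6%, 81.0%, 82.8% and 85.1%. H3f3b, one of the genes for histone H3.3, had 15.5%, 27.6%, 25.1% and 23.6%. Its strain term was -1.98 ± 0.041, an SE that is small beside the spread of its BC replicates. Of 38 histone lysine demethylases and methyltransferases, Setd1a was the only one with a 2-fold effect (2.63%). Ribosomal proteins had 12 BL6-higher and 2 cast-higher 2-fold genes, but 33 of the 42 share over 10% of their 31-mers with other loci, so their ratios are uncertain. Rps4l, the annotated pseudogene named above, had 1323, 1863, 8458 and 8408 BL6 reads and no cast read. Rpl19 had 201, 285, 190 and 174 BL6 reads against 3429, 3801, 1745 and 1743 from cast. Among cell cycle genes, Cdk4, the partner of D-type cyclins, had 81.1%, 80.4%, 89.8% and 89.4% BL6.

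Pluripotency genes were near the background of calls. Of 8 ES cell markers tested, 6 were called (75%, against 63.8% of all genes), 3 with each strain higher and none 2-fold, and the cast-higher count was 1 with the median centred. Sox2 had BL6 shares of 58.0% and 58.7% in BC and 63.7% and 62.9% in CB, and Esrrb 47.9%, 48.5%, 48.1% and 50.5%. Nanog, called at 0.92 ± 0.028, had 52.8% and 56.6% in BC against 80.0% and 78.9% in CB, so its size rested on CB. Pou5f1 was not called (0.18 ± 0.16, edgeR adjusted p = 0.30). Only 0.206% of its reads lay over a SNP, which left 194, 135, 30 and 32 BL6 reads against 161, 112, 26 and 18 cast reads. Of 22 further pluripotency regulators, 17 were called (77.3%), and Dppa2, Dppa4 and Otx2 were 2-fold apart (13.6%, against 7.71% of all genes). Otx2, a factor of the primed state, had 24.8%, 21.7%, 23.6% and 25.3% BL6 and a strain term of -1.86 ± 0.068. Dppa4 had 70.6%, 70.2%, 73.5% and 72.0%, and its neighbour Dppa2 had 99.4% to 99.7% BL6, although 40.1% and 33.8% of their 31-mers are shared. Klf5 was called at 1.06 ± 0.043, with 73.5%, 72.8%, 66.4% and 68.9% BL6.

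Nnt, the mitochondrial transhydrogenase in which C57BL/6J mice carry a known deletion, was near balance, with BL6 shares of 48.6%, 50.6%, 49.1% and 49.5%. Its strain term was -0.23 ± 0.044 (edgeR adjusted p = 5.3e-07), and its call was lost without scaling (-0.03) and with TMM normalization (-0.09). In female BC wt cells the strain ratio was -1.17 (log2), with BL6 shares of 27.2% and 27.3%.

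The parental term of the same fit, in which parent of origin and line cannot be told apart, gave fewer calls: 1006 genes (10.9% of genes tested) had opposite strains higher in the 2 crosses and passed its test, 739 on the maternal and 267 on the paternal side. DESeq2 called 537. Known imprinted genes behaved apart from the strain effects. H19, a maternally expressed RNA, had 96.1% and 95.9% BL6 reads in BC and 2.95% and 3.19% in CB. Peg3, a paternally expressed gene, had 13.9% and 15.4% against 96.5% and 97.4%. Of 46 imprinted-list genes tested, 31 were called parental and 10 as strain effects. Commd1 (93.0%, 96.8%, 97.4% and 96.1% BL6), Asb4 (96.0%, 92.9%, 86.7% and 80.6%) and Blcap (79.3%, 78.7%, 76.1% and 72.0%) were the 3 genes of that list with a 2-fold strain effect. The strain term of these 3 genes was 4.39 ± 0.11, 3.02 ± 0.26 and 1.51 ± 0.12.

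Strain effects also differed in size between the crosses. In 1672 of the 5904 called genes and in 247 of the 714 2-fold genes the parental term passed the threshold as well. Some called genes were balanced in BC and read almost only from cast in CB. Psmd8, a proteasome subunit, had 1012 BL6 and 1109 cast reads in BC wt 1, 978 and 1085 in BC wt 2, and then 0 BL6 reads against 1285 and 1150 cast reads in CB. Ccnf, which encodes cyclin F, had BL6 shares of 48.4% and 47.1% in BC and 0 of 430 and 0 of 407 reads in CB. In all, 79 genes had this pattern (40% to 60% BL6 in both BC replicates and under 5% in both CB replicates) and 62 of them were called as strain effects. The reverse, BL6 only in CB with balance in BC, was found in 2 genes.

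Part of this lay in stretches of the genome. Of 209 blocks of 10 Mb off chromosomes 1 and 8, 11 had a median BL6 share outside 40% to 60% in a control. In 10 of them both CB replicates were shifted to cast, at 9.24% to 39.2% BL6, while BC lay at 48.2% to 59.3%, and 22 of the 79 genes above lay in the 11 blocks. Female BC wt cells were shifted in 28 blocks, the same 10 (8.94% to 38.1%) among them, and KO clone ΔP2.1 of the CB line lay at 40% or more in 8 of them. The block of chromosome 19 from 60000001 to 70000000 had BL6 shares of 10% and 9.24% in CB wt, 6.77% and 7.69% in the CB clones ΔE2.5 and ΔE2.7 and 54.3% in ΔP2.1. The 11 blocks hold 281 members, and without them 1915 genes were called BL6-higher and 3804 cast-higher, with 440 and 252 at least 2-fold. Other genes of the 79 also lie close together outside the 11 blocks. Kctd5, Ccnf, Gfer, Ndufb10, Msrb1, Hagh, Fahd1, Mapk8ip3 and Nme3 start near 24 Mb of chromosome 17. Their block was at 42.3% and 41.7% BL6 in CB wt and 51.7% in ΔP2.1. Genes from Ccar2 to Fgf17 start near 70 Mb of chromosome 14, in a block at 42.0% and 41.3% in CB wt. The origin of these stretches was not tested.

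Female BC wt cells, which the rule did not use, gave a further line with BL6 mothers. In them 6826 of the 9257 genes were called (73.7%), 3777 with BL6 higher (40.8%) and 3049 with cast higher (32.9%). Of the 449 BL6-higher 2-fold genes, 407 were called BL6-higher in females (90.7%), and of the 265 cast-higher genes 228 were called cast-higher (86.0%). In 538 of the 714 genes (75.4%) the female difference was again at least 2-fold in the same direction, against 2044 of all 9257 members (22.1%). Of all 5904 called genes, 3450 were called with the same strain (58.4%) and 1104 with the other (18.7%), which is near the shares over all members, 51.9% and 21.9%. The female BL6-to-cast ratio of totals was 0.848 and 0.846, against 1.12 to 1.17 in the males, and with the median centred in each library these became 3653 and 581 of 5435. The female and BC lines share the direction of the cross, so parent of origin is not separated in females.

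In 15 of the 714 genes, against 265 of all 9257 members, the female difference was at least 2-fold toward the other strain. The genes named here were chosen after their values were seen. Rrbp1, a ribosome-binding protein of the endoplasmic reticulum, had 70.7%, 69.8%, 70.1% and 71.3% BL6 in the male controls and 21.6% and 20.7% in females. Atp5e, the epsilon subunit of ATP synthase, had 81.5%, 73.4%, 71.7% and 73.1% in males and 15.2% and 11.4% in females. Snrpf, a core protein of spliceosomal particles, had 88.3% to 97.5% in males and 8.94% and 5.97% in females. Rrbp1 and Atp5e share 0% and 0.056% of 31-mers, against 23.1% for Snrpf. Others were Asb4, Cox7a2l, Kdelr3, Myo7a, Ndufa12, Npm3, Padi4, Pcnp, Rps15a, Slfn9 and Ubald2. Asb4 and Padi4 lie in 10 Mb blocks shifted to cast in females. The block of Asb4 was at 38.0% and 28.3% BL6 and that of Padi4 at 26.5% and 28.05%. Snrpf and Ndufa12 lie close together on chromosome 10. The difference between the female and the male ratio was not tested for these genes.

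The 6 KO clones derive from the same 2 male lines and are no independent evidence. Each clone kept the direction of 98.0% to 99.9% of the 2-fold genes with at least 20 SNP reads in it. Of the 670 such genes read in all 6 clones, 649 pointed to the same strain in each (96.9%). The lowest share, 98.0%, was in ΔP2.1. Each clone kept the direction of 92.9% to 95.7% of all called genes, and all 6 clones did so together for 76.0% of called genes and 53.9% of all members.

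By chromosome, 2-fold genes made up 6.01% of genes tested on chromosome 19 and 10.3% on chromosome 12, and BL6-higher genes were at least as many as cast-higher genes on each of the 17 autosomes covered. Besides the MHC stretch, 2 runs of 3 neighbouring genes with the same strain 2-fold higher were found, Pon2, Asb4 and Pdk4 on chromosome 6 and Tulp4, Tmem181a and Dynlt1a on chromosome 17, both BL6-higher. The library kit did not mark strand, so reads of overlapping genes, among them Gstz1, Gstm5, H2afy, Commd1, Nnt and Ifitm2, cannot be told apart, and 55.4% of members overlap another annotated gene, against 51.0% of the BL6-higher and 55.1% of the cast-higher 2-fold genes.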

How the data were processed

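RNA was sequenced as 75-bp single-end reads from mRNA-enriched, unstranded libraries. Per the labels and the methods, the authors aligned reads to mm10 and to a pseudo-cast genome with Bowtie2 2.2.5 (submitters' processing notes), and deposited expected counts per gene, in part not whole, for reads over BL6 SNPs, over cast SNPs and on each genome. The gene annotation is not given in the sources used here. Counts were rounded. Symbols were matched to GENCODE M21 on mm10 for 23310 of 24346 genes, and 1036 unmatched genes were left out.

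The 8 allele columns were fitted with edgeR 4.0.16 (quasi-likelihood) in R 4.3.3, with sample as a block, a strain term and a parental term, library sizes being each allele's total over the 9257 genes. Called means an adjusted p under 0.05 with both crosses' mean log2 ratio (0.5 added to each count) on that side. DESeq2 1.42.0 was an alternative. The test was tried on simulated counts first. Deposited replicates differed beyond counting noise, with a chi-square per degree of freedom of the allele counts of 7.71 in BC wt and 1.30 in CB wt. The SEs and p-values of the fit can understate this spread. TPM used annotated transcript lengths.

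Named genes were, for each strain, the 12 called genes with the largest smaller cross ratio (at least 100 SNP reads in every control, no predicted symbol), up to 4 called members of each of 31 lists, Nnt and 4 imprinted genes. Other genes were named after their values were seen, and 1 gene is not reported here. The members and lists were chosen with earlier results of these data known. Depth per library is given with the report, and intervals cover counting error only.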

Additional observations from a re-analysis of the deposited data

Results flagged for a closer look

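The strain effect of 9 named genes differed between the 2 crosses by at least 4 on the log2 scale, with the parental term, which is the test of that difference, past the threshold in edgeR's quasi-likelihood fit. The values are the scaled log2 BL6-to-cast ratio in BC minus that in CB. In Psmd8 it was 11.16, in Ccnf 9.64, in Ndufb10 (a complex I subunit) 8.71, in Zfp52 6.89, in Rab11fip2 5.90, in Zfp950 5.78 and in Zfp955a 5.50. In all but Zfp955a of these, BC was near balance and CB was read almost only from cast, whereas Zfp955a had no cast read in BC and 52 and 70 in CB. Where an allele had no read in a cross, its value is set by the 0.5 added to each count. With a floor of 3 reads over the 2 replicates, the difference was at least 9.58 in Psmd8, 8.05 in Ccnf, 5.31 in Zfp52 and 3.94 in Zfp955a. In Ndufb10, Rab11fip2 and Zfp950 the BL6 allele had 1, 1 and 2 reads in CB, so their sizes are rough and the order of these genes is not given by the data. In Morf4l1, a chromatin protein of acetyltransferase complexes, the difference was -6.19 and in Nap1l1, a histone chaperone, -4.79, with the same strain strongly higher in both crosses. Morf4l1 had no BL6 read in BC, where the floor gives -4.58 or beyond, and Nap1l1 had 1 cast read in CB. Zfp950 lies within the block of chromosome 19 that was shifted to cast in CB, and Rab11fip2 just before it. Ccnf and Ndufb10 lie in the same stretch of chromosome 17, with other genes of this pattern. Ndufb10 had 46.3% BL6 in clone ΔP2.1. Parent of origin and line cannot be told apart in any of these values.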

How the results depend on the processing

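Without any scaling 3246 genes were called BL6-higher and 2107 cast-higher, and with TMM normalization 2598 were cast-higher. DESeq2 called 1402 and 2746. The cause of the shifts listed here was not tested. DESeq2 called 537 parental genes, and its called genes had a median size of 0.65 (log2). With no filter on low counts 1119 genes were 2-fold and the median size was 0.56. Without the parental term 2463 genes were cast-higher and the median size was 0.56. Leaving out genes whose counts on the 2 genomes differ by over 10% left 443 2-fold genes, and including chromosomes 1 and 8 gave 1688 parental genes. Leaving out each control replicate in turn gave 1740 to 1835 BL6-higher, 3540 to 3757 cast-higher, 706 to 723 2-fold and 819 to 977 parental genes, 7052 to 7123 genes of the same direction and median sizes of 0.52 to 0.55. Leaving out each female replicate in turn, 3118 to 3239 called genes were also called in females. Of 2670 values of 166 named genes under 17 alternatives, 2629 kept their call, 41 lost it and 0 reversed. Of the lost calls, 28 were without the parental term, Psmd8, Ccnf and Nanog among them.

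Samples of the BC and CB lines share replicate numbers only. Deviations of same-numbered samples correlated at 0.0099 over 7121 genes, and the fit with a replicate block called 1944 BL6-higher, 3953 cast-higher, 714 2-fold and 1005 parental genes. Chosen after seeing the data, leaving out genes that share over 10% of their 31-mers gave 1637 BL6-higher and 3795 cast-higher genes, with 303 and 223 at least 2-fold. SNP reads limit the lowest genes: of genes with 20 to 50 in their lowest control 47.1% were called.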
